A study of Homo sapiens with 12 samples.

Results

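The estrogen receptor gene ESR1, the progesterone receptor gene PGR and 8 transcription factors of luminal breast epithelium (FOXA1, GATA3, SPDEF, XBP1, GRHL2, EHF, ELF3 and TRPS1) were followed through the development of lapatinib tolerance in BT474 cells. These 10 genes were chosen by name, as 10 of the 26485 genes in the table, and all 10 passed the filter on low values. BT474 is an established human breast cancer line with amplified HER2 (ERBB2), and lapatinib is a small molecule inhibitor of the HER2 and EGFR kinases. Bulk mRNA was sequenced in 12 libraries, 3 in each of 4 groups of wild-type cells. Control cells were taken at day 0, drug-tolerant persister cells (DTP) at day 9, drug-tolerant expanding persister cells (DTEP) at month 6 and long-term resistant cells (LR, labelled Resistant) at month 9 of exposure to 1 µM lapatinib. The treatment label of the Control libraries also names lapatinib, and they were read as untreated from their titles. The study calls the libraries technical replicates and parallel plates, and its general statement on statistics speaks of independent experiments, so that every p-value here measures the spread between libraries, which may be technical. The comparisons ask how the luminal factors moved at each step from sensitive to resistant cells.

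Estrogen receptor alpha, encoded by ESR1, is a nuclear receptor that binds DNA when estrogen is present, and PGR is among its classical target genes. FOXA1 and GATA3 open chromatin at the enhancers that the receptor uses, and together with it they maintain the luminal program of breast epithelium. SPDEF, EHF and ELF3 are ETS factors of epithelial cells, GRHL2 is a grainyhead factor that keeps epithelial junction genes active, XBP1 is a leucine zipper factor of the unfolded protein response, and TRPS1 is a repressor with a GATA-type zinc finger.

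The sequence before the transcription start is shown for the receptor pair, whose transcripts fell together, and for GATA3 and XBP1. These 2 are among the 6 members that rose from DTP to DTEP, and FOXA1, SPDEF, EHF and TRPS1 are not printed. The letters may so be read beside the values. The sequences are from RefSeq (GRCh38.p14), 250 bases up to the start, 5′ to 3′ on the strand of the gene, at chr6:151807432-151807681 (+ strand) for ESR1, chr11:101129814-101130063 (- strand) for PGR, chr10:8054438-8054687 (+ strand) for GATA3 and chr22:28800570-28800819 (- strand) for XBP1. Capitals mark a match to any of the motifs searched on either strand, namely GGTCA as an arm of the estrogen response element, TGTTTAC or TGTTTGC for forkhead factors, AGATAA for GATA factors, GGAAG for ETS factors, AACCNGTT for grainyhead factors and CACGT as the core of XBP1 elements.
ESR1: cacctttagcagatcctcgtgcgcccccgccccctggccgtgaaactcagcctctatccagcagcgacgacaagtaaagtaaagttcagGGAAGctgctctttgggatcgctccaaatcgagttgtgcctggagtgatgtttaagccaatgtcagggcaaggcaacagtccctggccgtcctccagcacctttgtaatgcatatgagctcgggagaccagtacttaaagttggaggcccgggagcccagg
PGR: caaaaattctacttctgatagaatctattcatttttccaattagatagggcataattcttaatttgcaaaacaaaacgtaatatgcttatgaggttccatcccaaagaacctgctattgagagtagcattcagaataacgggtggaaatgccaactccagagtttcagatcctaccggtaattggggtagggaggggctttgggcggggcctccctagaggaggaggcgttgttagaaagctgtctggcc
GATA3: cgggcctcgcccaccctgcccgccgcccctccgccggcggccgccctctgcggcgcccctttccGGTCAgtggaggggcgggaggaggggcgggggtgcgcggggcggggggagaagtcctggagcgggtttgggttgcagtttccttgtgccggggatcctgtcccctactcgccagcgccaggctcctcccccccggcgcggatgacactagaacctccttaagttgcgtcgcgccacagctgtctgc
XBP1: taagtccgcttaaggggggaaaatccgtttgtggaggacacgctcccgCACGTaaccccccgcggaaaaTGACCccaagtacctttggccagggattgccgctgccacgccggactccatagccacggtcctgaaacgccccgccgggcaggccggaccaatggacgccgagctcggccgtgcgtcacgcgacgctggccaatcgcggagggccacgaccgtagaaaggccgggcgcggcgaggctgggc

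A window of 300 bases, these 250 and the 50 after the start, was found for 8 of the 10 genes and searched in the same way. The estrogen receptor letters GGTCA were in the windows of GATA3 and XBP1 and in those of no other member, and 37.4% of all 35116 windows in the table held them. ESR1 had 1 ETS match, a motif held by 71.9% of windows, and PGR and ELF3 had no match to any of the 6 motifs. The XBP1 core was in the windows of XBP1, SPDEF and EHF and in 21.4% of all windows, and a forkhead match stood in the FOXA1 window alone among the 8, against 7.17% of all. No member window held the GATA or grainyhead letters, which were in 10.3% and 1.73% of all windows. The windows ranged from 44.3% GC in PGR to 69.3% in FOXA1 and GATA3. These matches are letters within a window and were not tested against the expression values.

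Reads assigned to genes numbered 16383363 to 25030482 per library, so that 1 read was worth 0.0412 to 0.0576 normalised counts. The luminal keratins KRT7, KRT8, KRT18 and KRT19 stood above 250 normalised counts in every library, whereas the basal keratins KRT5 and KRT14 were at 0 or at most 0.0969. SOX10, CNN1 and the T cell gene CD3E were at 0 in each group. Other basal markers were present, with EGFR at 18.9 to 22.4 in Control, TRIM29 at 57.1 to 65.0 in DTP and TP63 at 16.4 to 65.6 in LR. The luminal keratins were not stable, since KRT8 ran from 936 to 1036 in Control and from 256 to 503 in LR. KRT7 ran from 840 to 918 and from 257 to 397 in the same groups. ERBB2 itself, the gene that defines the line as HER2+, was at 6356 to 6833 in Control, 7917 to 9136 at day 9, 1244 to 2103 at month 6 and 1556 to 1897 at month 9. The summed level of 13 markers of immune, fibroblast and endothelial cells ran from 63.1 to 73.7 over the Control libraries, from 56.0 to 68.3 over the DTP libraries, from 84.7 to 126 over DTEP and from 99.95 to 132 over LR. Most of it came from COL1A1, at 48.1 to 130. Over all tested genes the DTEP libraries were less alike (Pearson r of 0.934 to 0.982 on the log scale) than the Control libraries (0.997 to 0.998). DTEP replicate 3 correlated with the LR libraries at 0.971 to 0.986, whereas DTEP replicate 1 did so at 0.913 to 0.933.

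The receptor transcripts were nearly lost by month 9. ESR1 stood at 150, 153 and 149 normalised read counts in the Control libraries and at 93.5, 101 and 122 at day 9. It stood at 16.7, 6.88 and 0.842 in the DTEP libraries and at 0.211, 0.0553 and 0.194 in the LR libraries. No LR library overlapped any DTEP library, and the 3 DTEP libraries spanned a wide range. The 3 LR libraries held 5, 1 and 4 ESR1 reads, 10 in all, against 9267 in Control. The Control level was therefore 938 times the LR level, with a 95% interval of 510 to 1957 that covers counting error only. RefSeq places the gene SYNE1 across the end of ESR1 (chromosome 6, 151656672 to 152129619), and it was itself at a mean of 58.7 in Control and 6.87 in LR.

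PGR moved with its receptor. Its level was 1262, 1251 and 1022 in the Control libraries and 740, 858 and 1130 in the DTP libraries. In DTEP it was 147, 60.4 and 11.8, and in LR 3.00, 0.332 and 4.02. DTP overlapped Control, and DTEP lay below DTP and above LR in every library. With 160 reads in LR against 72404 in Control, the Control level was 458 times the LR level (95% counting interval 392 to 539). Fewer cells with a transcript and less of it in each cell cannot be told apart in bulk libraries.

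By limma on log2(normalised count + 1), a scale that understates changes of low genes, the receptors did not pass the test at day 9, fell between DTP and DTEP and fell again between DTEP and LR. The DTP to Control difference was −0.52 ± 0.57 (SE) for ESR1 (adjusted p = 0.467, 95% interval −1.77 to 0.73) and −0.39 ± 0.70 for PGR (adjusted p = 0.668, interval −1.93 to 1.15). The ESR1 groups did not overlap at this step, and fitted on the 6 libraries alone the same difference had an adjusted p of 0.00279 in limma. From DTP to DTEP, ESR1 fell by 4.05 ± 0.57 (adjusted p = 5.2e-05) and PGR fell by 4.20 ± 0.70 (adjusted p = 0.000207). From DTEP to LR, ESR1 fell by 2.47 ± 0.57 (adjusted p = 0.0308) and PGR fell by 4.03 ± 0.70 (adjusted p = 0.0103). The size of this last step depends on the scale, and with it the order of the receptors: it was −4.31 for ESR1 and −4.74 for PGR with a pseudocount of 0.1, −5.54 and −4.79 in edgeR and −5.65 and −4.85 in DESeq2. The test of this step rests on the spread that all 12 libraries share. Fitted on the 6 DTEP and LR libraries alone, ESR1 had an adjusted p of 0.301 and PGR of 0.266.

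**Figure D1:**
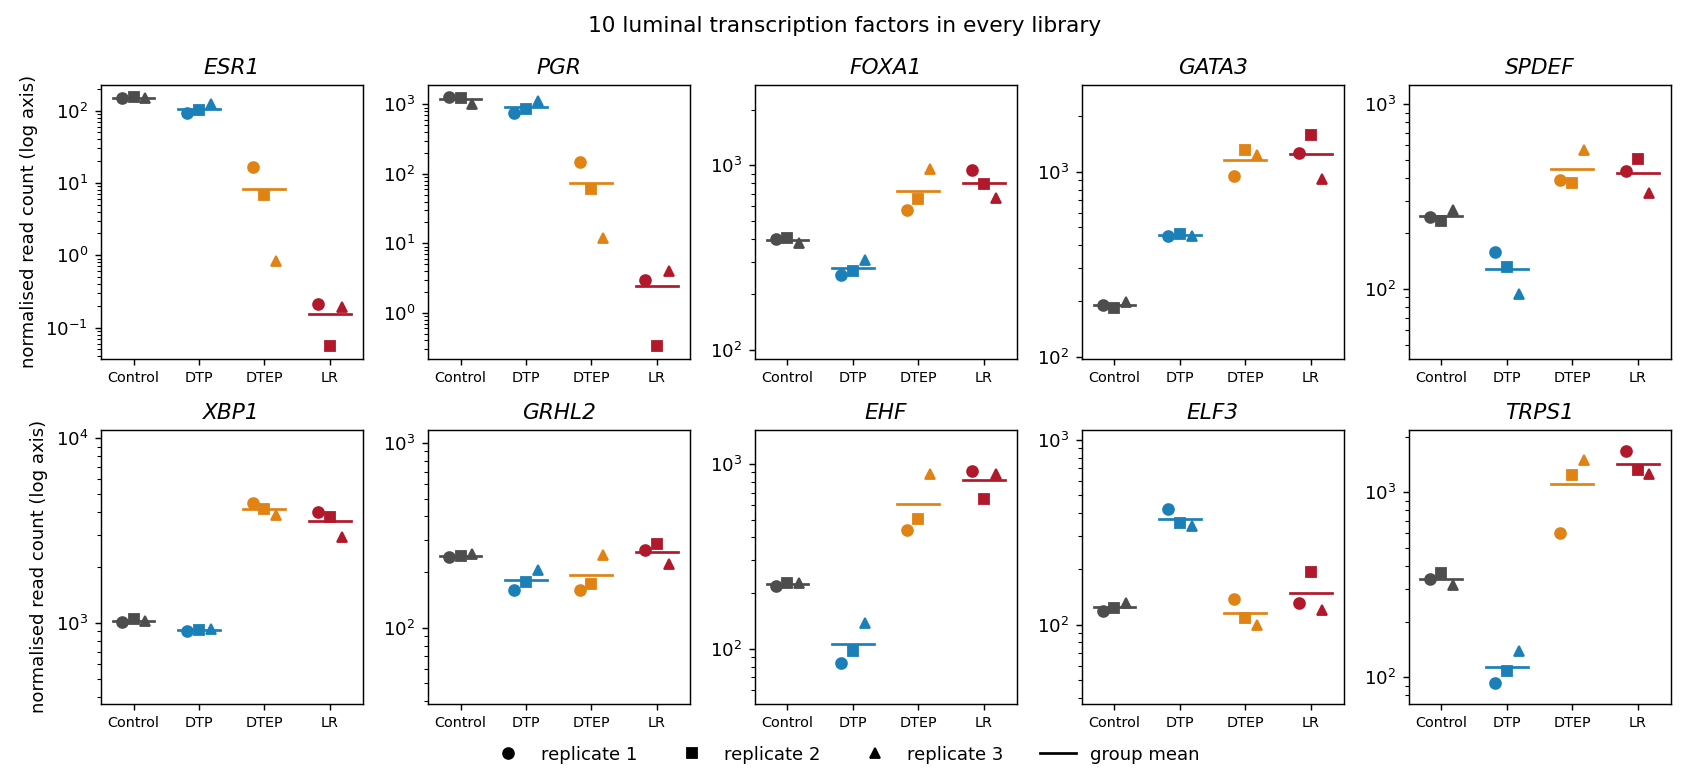
Normalised read count (log axis) of each of the 10 genes in every library, by group; symbols give the replicate and lines the group mean. ESR1 and PGR descend to 10 and 160 reads in the 3 LR libraries together. FOXA1, GATA3, SPDEF, XBP1, EHF and TRPS1 sit above every Control library in DTEP and LR, and ELF3 peaks in DTP.

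In DTEP the receptor transcripts were kept at similar shares of Control within replicates 1 and 2, while the PGR share was the higher one in replicate 3, and the shares differed between libraries. As a percentage of the Control mean, ESR1 stood at 11.1, 4.57 and 0.559 in DTEP replicates 1, 2 and 3, and PGR at 12.5, 5.12 and 1.00. GREB1, a growth regulator induced by estrogen, stood at 12.8, 5.42 and 0.911, and TFF1, a secreted trefoil peptide, at 14, 3.998 and 0.635. ELF5, an ETS factor of luminal progenitors, stood at 22.8, 13.7 and 0.857. The read ratio of PGR to ESR1 was 8.40, 8.20 and 6.87 in Control libraries, 7.92, 8.53 and 9.29 in DTP libraries, and 8.80, 8.78 and 14 in DTEP libraries, the last with an exact 95% interval of 8.30 to 25.5 on 15 ESR1 reads. The ratio thus stayed near its Control values in DTEP replicates 1 and 2 while both genes fell by a factor of 8 or more.

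Other transcripts lost by month 9 were also kept at small shares that differed between the DTEP libraries. After the values were seen, the 103 genes with a Control mean of at least 20 and at most 3 reads in each LR library were taken, neither receptor among them. Their median level in DTEP was 7.89% of Control in replicate 1 (quartiles 5.08 and 16.1), 3.50% in replicate 2 (1.85 and 5.78) and 0.331% in replicate 3 (0.0891 and 0.641). In DTP their median was 74.8 to 81.5%. The receptor values lie within the quartiles of these genes in replicates 1 and 2, and in replicate 3 ESR1 does and PGR lies above. What sets the share of each DTEP library was not tested, nor was the identity of the cells in the DTEP and LR libraries beyond the markers above, and this limit holds for each DTEP and LR value given here.

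**Figure D2:**
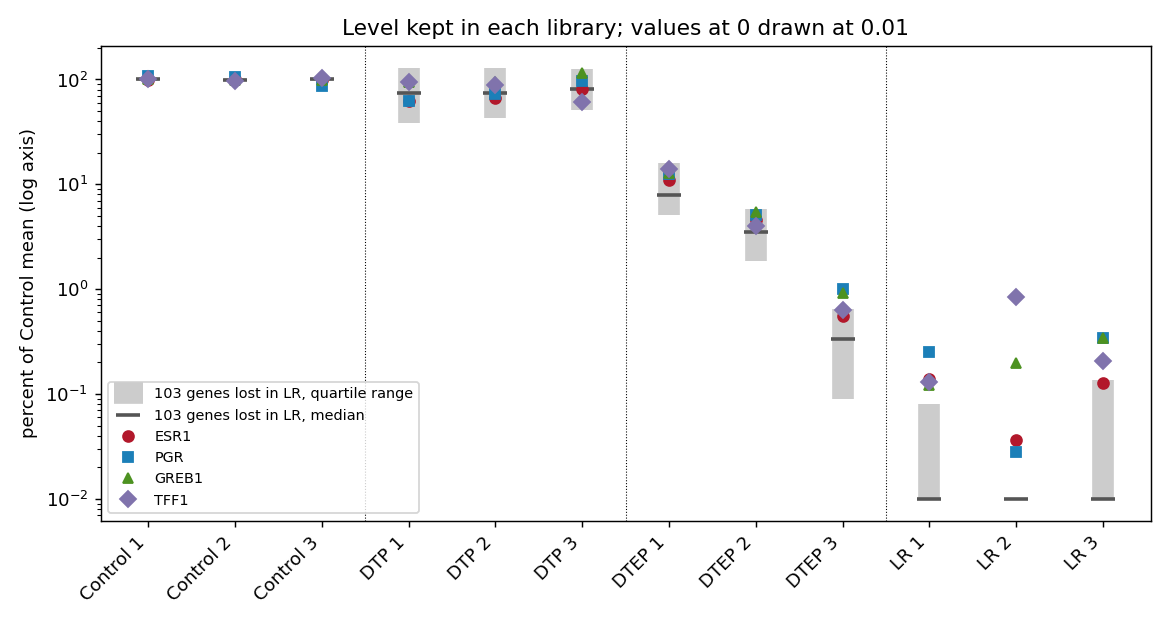
Level in each library as a percentage of the Control mean (log axis) for ESR1, PGR, GREB1 and TFF1, with the median and quartile range of 103 genes lost in LR; values at 0 are drawn at 0.01. In DTEP the 4 genes lie near 11 to 14% in replicate 1, 4 to 5% in replicate 2 and at or below 1% in replicate 3.

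The pioneer factors GATA3 and FOXA1 stood above Control at month 6 and month 9, while at day 9 GATA3 was higher and FOXA1 lower. GATA3 stood at 190, 183 and 198 in the Control libraries, at 450, 461 and 451 at day 9, at 943, 1311 and 1225 at month 6, and at 1270, 1572 and 910 at month 9. Each DTP library was above each Control library, each DTEP library was above each DTP library, and DTEP and LR overlapped. In limma GATA3 rose by 1.25 ± 0.19 in DTP (adjusted p = 0.000224) and by 1.34 ± 0.19 from DTP to DTEP (adjusted p = 5.8e-05). The LR to DTEP difference was 0.09, with a 95% interval of −0.33 to 0.50 (adjusted p = 0.758). GATA3 was the member whose order of levels ran opposite to that of the receptors in full, LR and DTEP above DTP above Control. Counting with default settings would not use strand, and the overlapping gene GATA3-AS1 had group means of 0.209 in Control, 0.685 at day 9, 27.2 at month 6 and 30.3 at month 9.

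FOXA1 dipped and then rose. Its 3 Control libraries ranged from 380 to 405, the DTP libraries from 256 to 307, the DTEP libraries from 575 to 958 and the LR libraries from 666 to 940, and only DTEP and LR overlapped. It fell by 0.51 ± 0.19 in DTP (limma adjusted p = 0.0397), a call that 10 of 22 alternative settings did not keep, and rose by 1.36 ± 0.19 from DTP to DTEP (adjusted p = 4.7e-05). LR differed from DTEP by 0.15, with a 95% interval of −0.27 to 0.56. LR stood 1.00 ± 0.19 above Control on the log2 scale (adjusted p = 0.000619).

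TRPS1 had the widest swing of the factors that rose. The Control libraries held 341, 364 and 317 normalised counts, the DTP libraries 93.0, 108 and 139, the DTEP libraries 599, 1241 and 1491, and the LR libraries 1679, 1319 and 1263. DTP lay below Control and DTEP above both, with DTEP replicate 1 well under its companions. In limma TRPS1 fell by 1.59 ± 0.28 in DTP (adjusted p = 0.000628) and rose by 3.20 ± 0.28 from DTP to DTEP (adjusted p = 1.2e-06). The LR to DTEP difference was 0.44 (interval −0.17 to 1.06, adjusted p = 0.270).

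The ETS factors parted ways at day 9. EHF stood at 218, 228 and 227 in the Control libraries and at 84.0, 96.5 and 137 in the DTP libraries, then at 439, 505 and 884 in DTEP and at 914, 648 and 886 in LR. ELF3 stood at 119, 123 and 131 in Control libraries and at 423, 354 and 341 in DTP libraries, then at 138, 108 and 99.6 in DTEP and at 131, 194 and 120 in LR. EHF was lowest and ELF3 highest in DTP, without overlap with any other group. EHF fell by 1.11 ± 0.25 in DTP (limma adjusted p = 0.0031) while ELF3 rose by 1.57 ± 0.18 (adjusted p = 3.5e-05). From DTP to DTEP the directions turned, EHF rising by 2.48 ± 0.25 (adjusted p = 3.8e-06) and ELF3 falling by 1.69 ± 0.18 (adjusted p = 6e-06). Thereafter ELF3 stood near Control, the differences being −0.12 in DTEP (interval −0.52 to 0.28) and 0.23 in LR (interval −0.17 to 0.63).

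Within a library the ELF3 to EHF read ratio does not depend on the normalisation. It was 0.543, 0.541 and 0.575 in the Control libraries and 5.04, 3.67 and 2.49 at day 9, against 0.314, 0.214 and 0.113 at month 6 and 0.144, 0.299 and 0.136 at month 9. The ratio was above 1 in the 3 DTP libraries and in no other library, although such a ratio is not corrected for length. SPDEF, the third ETS factor, followed EHF rather than ELF3. Control libraries ranged from 234 to 268, DTP from 94.3 to 158, DTEP from 375 to 567 and LR from 331 to 506, the gene falling by 0.98 ± 0.22 in DTP (limma adjusted p = 0.00272) and rising by 1.79 ± 0.22 from DTP to DTEP (adjusted p = 1.7e-05).

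XBP1 did not pass the test at day 9 and then rose by month 6. Its counts were 1010, 1050 and 1019 in Control libraries and 905, 917 and 932 in DTP libraries, then 4481, 4152 and 3820 at month 6 and 3994, 3751 and 2940 at month 9. Each DTP library lay below each Control library, with a difference of −0.16 (interval −0.53 to 0.21, limma adjusted p = 0.447) that passed under 1 of 22 alternatives, the 6 libraries alone (adjusted p = 0.027). Every DTEP and LR library was above each of these. XBP1 rose by 2.17 ± 0.17 from DTP to DTEP (adjusted p = 4.4e-07). Counts per gene do not separate the spliced, active form of its mRNA from the unspliced form.

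GRHL2 moved least. The Control libraries spanned 240 to 251, the DTP libraries 160 to 205, the DTEP libraries 160 to 247 and the LR libraries 220 to 286. It fell by 0.45 ± 0.17 in DTP (limma adjusted p = 0.0418), a call that 12 of 22 alternatives did not keep, and its other steps did not pass the test. The DTEP to DTP difference was 0.08 (interval −0.30 to 0.45), and the LR to DTEP difference was 0.43 (interval 0.06 to 0.80, adjusted p = 0.104). Without DTEP replicate 3, the LR to DTEP differences of GRHL2 (0.62, adjusted p = 0.00329), EHF (0.77, adjusted p = 0.00833) and TRPS1 (0.71, adjusted p = 0.0464) passed the test.

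A gene was called higher or lower at an adjusted p below 0.05 and a log2 change beyond 2. In DTP against Control 0 members were called by limma, edgeR or DESeq2, where 1.01% of the 13794 genes tested were called higher and 3.9% lower. By adjusted p alone, 2 members were higher and 5 lower, and 54% of all genes passed in either direction. The median member change was −0.48 against −0.01 over all genes. From DTP to DTEP, 3 members were called higher (XBP1, EHF and TRPS1; background 8.13%) and 2 lower (ESR1 and PGR; background 7.02%). By adjusted p, 6 rose, 3 fell and GRHL2 did not pass (background 68.2%), and the median was 1.35 against 0.08. DTEP and DTP libraries did not overlap for 9 members, 6 higher and 3 lower, which was so for 67.25% of all genes.

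Between DTEP and LR the 2 receptors were the members that changed. They were called lower by limma, with 0 members higher by limma, edgeR or DESeq2 and 1, GRHL2, higher at an unadjusted p below 0.05, where 0.457% of all genes were called lower, 0.225% higher and 7.35% passed by adjusted p. The receptor libraries did not overlap, which was so for 22.53% of all genes, and those of the other 8 members did. Leaving out DTEP replicate 2 ended both calls, at adjusted p = 0.123 for ESR1 and 0.0573 for PGR. The ESR1 call was also lost, at adjusted p between 0.0502 and 0.0899 in limma, without DTEP replicate 1, LR replicate 1 or 2, DTP replicate 1 or 2 or any Control library.

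**Figure D3:**
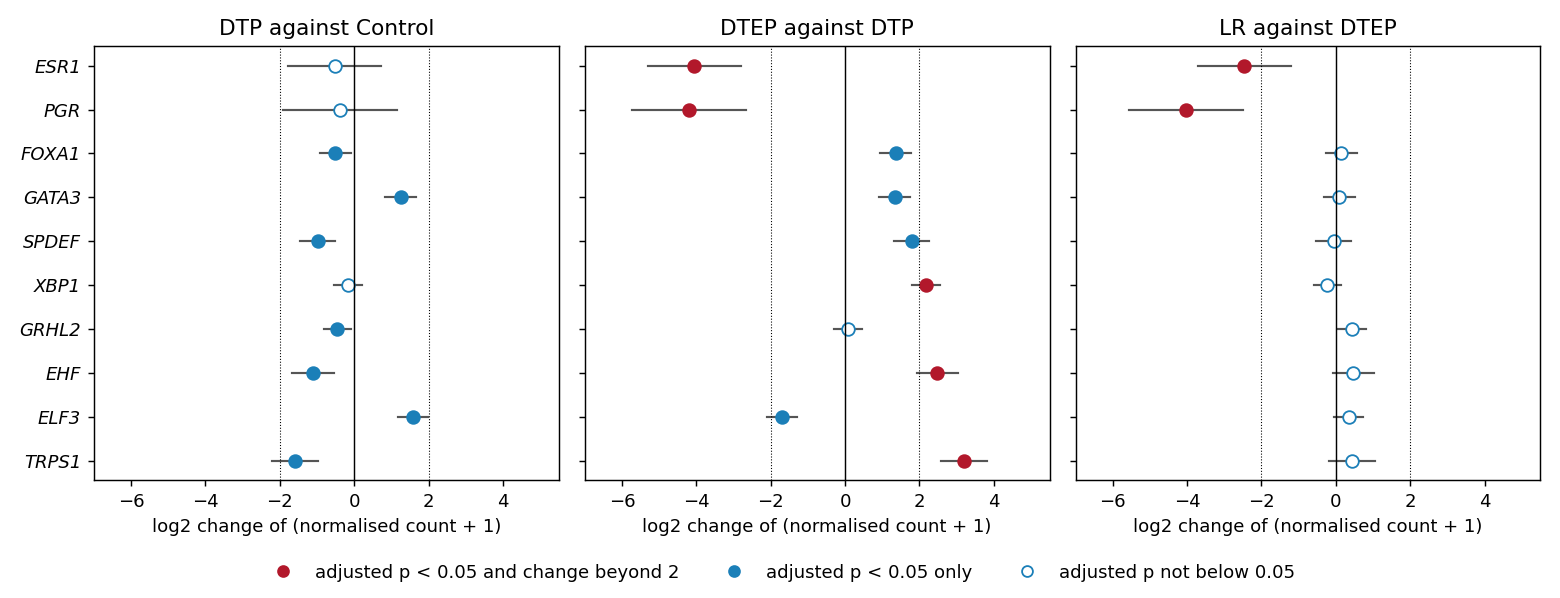
Change in log2(normalised count + 1) of the 10 genes at the 3 successive steps, with 95% intervals from limma; dotted lines mark a change of 2 and filled points an adjusted p below 0.05. The steps share groups, so that a low DTP value enters the first 2 panels with opposite sign, and between DTEP and LR only ESR1 and PGR are filled.

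Set against Control, which both later groups share, the receptors were lower and FOXA1, GATA3, SPDEF, XBP1, EHF and TRPS1 were higher at month 6 and at month 9, whereas GRHL2 and ELF3 did not pass. In DTEP, GATA3 (2.59 ± 0.19) and XBP1 (2.01 ± 0.17) were called higher and ESR1 (−4.58 ± 0.57) and PGR (−4.59 ± 0.70) lower, against 4.43% and 6.2% of all genes. In LR, GATA3 (2.68 ± 0.19) and TRPS1 (2.05 ± 0.28) were called higher and ESR1 (−7.04 ± 0.57) and PGR (−8.62 ± 0.70) lower, against 5.03% and 7.8%. By adjusted p, 6 members were higher and 2 lower in each, while 58.2% and 62.8% of all genes passed. XBP1 and TRPS1 lie close to the boundary. XBP1 in DTEP was at 1.95 without DTEP replicate 1, and TRPS1 in LR was at 1.996 without Control replicate 3 and at 1.92 without LR replicate 1, each under the limit of 2 and still past the adjusted p.

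The estrogen receptor target genes, a list of 25 of which 23 were tested, fell in large part at the step at which the receptors fell. In DTP, 2 were called lower, MYBL1 (−3.25 ± 0.35) and the receptor tyrosine kinase RET (−2.55 ± 0.28), and the list median was −0.06. By adjusted p, 3 were higher and 6 lower in DTP, where 54% of all genes passed. STC2 stood at 367 to 386% of Control in the DTP libraries, KCNK5 at 245 to 307% and IGFBP4 at 196 to 260%. From DTP to DTEP, 12 were called lower and 1 higher, with a median of −2.17 against 0.08 for all genes. Over all genes, 3.9% were called lower in DTP, and 7.02% were called lower and 8.13% higher from DTP to DTEP. The largest changes were those of GREB1 (−4.55 ± 0.62) and SUSD3 (−4.53 ± 0.44), and SUSD3 fell from 160 to 233% of Control in DTP. Set against Control, 10 targets were called lower and 0 higher in DTEP, where 6.2% of all genes were called lower. From DTEP to LR, GREB1 (−3.37 ± 0.62, limma adjusted p = 0.0132) and TFF1 (−2.65 ± 0.73, adjusted p = 0.0488) were called lower, neither of which passed with the 6 libraries alone. Not every target fell, since CA12, a carbonic anhydrase, stood at 171, 155 and 170% of Control in LR and NAT1 at 261, 258 and 139%. Against Control, 12 were called lower and 0 higher in LR, where 7.8% of all genes were called lower. By adjusted p, 3 were higher and 18 lower, while 62.8% of all genes passed. AGR3, CXCL12, SUSD3 and KCNK5 had no read in any LR library.

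**Figure D4:**
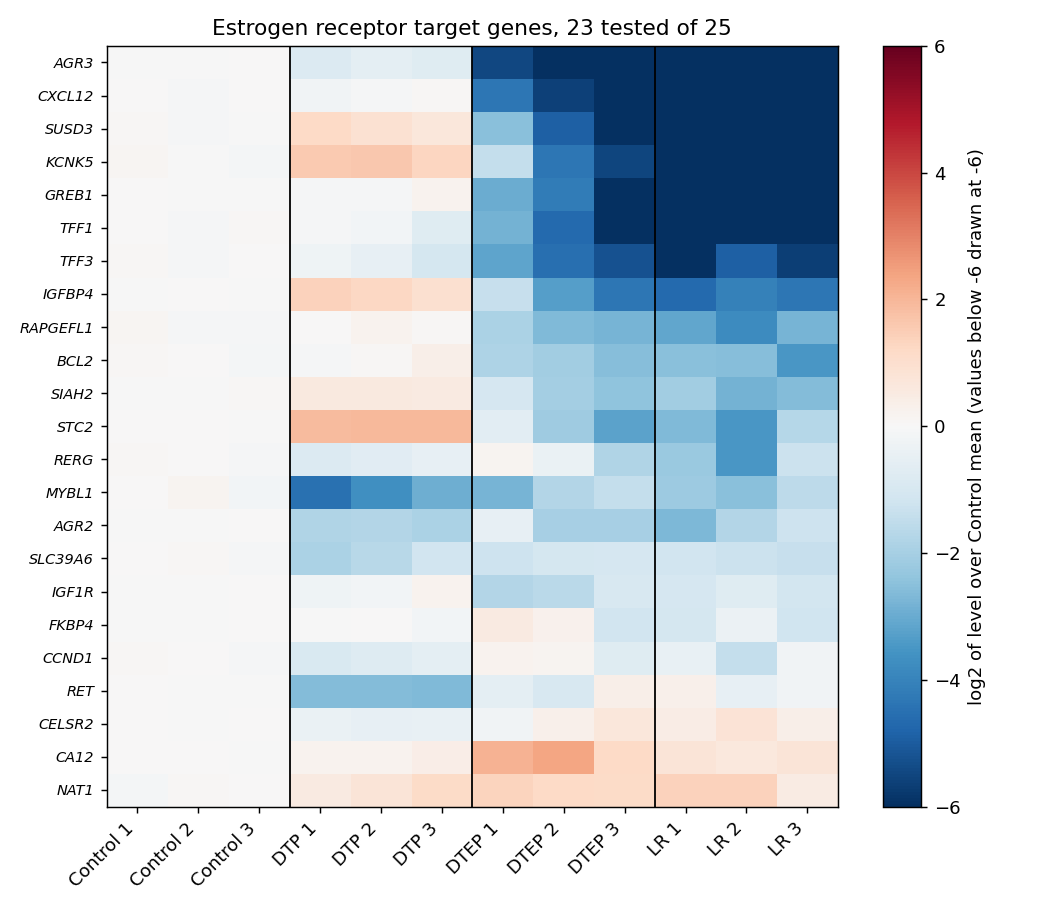
Level of 23 estrogen receptor target genes in each library as log2 over the Control mean (red higher, blue lower; values below −6 drawn at −6), ordered by their LR mean. The genes at the top are lowest in LR and DTEP replicate 3, and CA12 and NAT1 at the bottom stand above Control in every later library.

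Among 28 partner factors and cofactors, 25 of them tested, 2 were called at day 9 and 5 from DTP to DTEP. ELF5 fell by 3.13 ± 0.53 from DTP to DTEP and by 2.07 ± 0.53 from DTEP to LR (limma adjusted p = 0.0405), where it did not pass with the 6 libraries alone. The coactivator NCOA2 fell by 3.14 ± 0.62 in DTP and CITED2 rose by 2.10 ± 0.20, while the retinoic acid receptor RARA fell by 2.76 ± 0.21 from DTP to DTEP. In counts, 1 partner was called higher and 1 lower at day 9, and 3 higher and 2 lower from DTP to DTEP. Over all genes, 1.01% were called higher and 3.9% lower at day 9, and 8.13% and 7.02% from DTP to DTEP. Whether the list differs from these shares was not tested.

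The 22 XBP1 and unfolded protein response genes had 0 called higher and 1 lower in DTP, and 3 higher and 0 lower from DTP to DTEP. Over all genes, 3.9% were called lower in DTP and 8.13% higher from DTP to DTEP. In LR against DTEP 0 were called in either direction, and by limma 1 was lower at an adjusted p below 0.05, where 7.35% of all genes passed. SEC24D, a coat protein of vesicles that leave the endoplasmic reticulum, fell by 2.57 ± 0.21 in DTP and rose by 2.84 ± 0.21 in DTEP. ERN1, which encodes the IRE1 sensor that splices XBP1 mRNA, rose by 2.33 ± 0.39 at the same step. It had been lower in DTP, at 1.10 to 2.02 against 7.27 to 7.45 in Control. Its DTEP libraries held 4.78, 11.6 and 22.6, so that replicate 1 stayed below Control. The list median at that step was 0.73, against 2.17 for XBP1 itself. Of 19 epithelial junction and splicing genes, 3 were called lower and 0 higher from DTP to DTEP, where 7.02% of all genes were called lower. The 3 included CDH1 (−2.79 ± 0.21), the E-cadherin gene, and DSP (−2.52 ± 0.76), the desmoplakin gene. By adjusted p, 7 of the list were higher, 5 were lower and 7 did not pass, while 68.2% of all genes passed. The list median was 0.03 against 0.08 over all genes, and GRHL2 did not pass.

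Other lists moved with these steps, and their part in the members' values was not tested. Of 17 proliferation genes, 16 were called lower in DTP and 14 higher from DTP to DTEP, and from DTEP to LR 11 were lower by adjusted p. Over all genes, 3.9% were called lower in DTP, 8.13% were called higher from DTP to DTEP and 7.35% passed by adjusted p from DTEP to LR. MKI67 fell by 5.94 ± 0.23 and then rose by 7.26 ± 0.23, and RRM2 fell by 6.12 ± 0.69 and then rose by 6.55 ± 0.69. The summed level of the 11 luminal markers was 4274 to 6579 in DTEP and 4607 to 5424 in LR, below every Control library. ERBB2 was the largest part of this sum in every library. From DTP to DTEP, 5 markers were called lower, led by GRB7 (−3.22 ± 0.29) and MUC1 (−2.94 ± 0.25), and 7.02% of all genes were. By adjusted p, 8 markers were lower and 2 higher at that step, where 68.2% of all genes passed. In LR against Control, 8 were again lower and 2 higher by adjusted p, where 62.8% of all genes passed. ERBB3 stood at 377 to 396 in Control and at 1028 to 1131 in LR. Of 12 basal markers, 5 were tested. EGFR fell by 2.36 ± 0.30 in DTP, and from DTP to DTEP TP63 rose by 2.94 ± 0.52 and TRIM29 fell by 2.23 ± 0.35. The 12 mesenchymal genes, 6 of them tested, summed to 162 to 170 in DTP and to 1.57 to 22.0 in DTEP. Most of the DTP sum came from VIM, at 84.3 to 97.9, and TWIST1, at 64.8 to 74.6. TWIST1 had risen by 2.76 ± 0.47 in DTP before it fell by 4.17 ± 0.47 with VIM (−4.53 ± 0.59) in DTEP. In contrast, CDH2 and FN1 were below every Control library in DTP, and ZEB1 and CDH2 were above every DTEP library in LR. By adjusted p, 2 were higher and 2 lower in DTP. From DTP to DTEP 1 was higher and 4 lower, and from DTEP to LR 2 were higher and 1 lower.

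Over the 12 libraries, which share 4 groups, ESR1 and PGR were correlated at r = 0.988 on the log2 scale, and EHF, TRPS1 and FOXA1 at 0.979 to 0.985 among themselves. ESR1 and FOXA1 stood at −0.901, and GRHL2 with GATA3 at −0.0437. Among genes outside the set, the most like ESR1 were IKZF3, KIF1A and CFL2, at r = 0.998 each, and the most like PGR were ATP9A (0.995), SLC7A2 (0.995) and TCN1 (0.993). IKZF3, with Control and DTP means of 323 and 266 and DTEP and LR means of 15.6 and 0.194, shows the same descent. FOXA1 was most like DCAF10, RUFY3 and ZNF280D, EHF most like EIF2AK4, PCNXL4 and PKP4, and TRPS1 most like ALDH6A1, FEM1C and TMX4, with r between 0.988 and 0.998. GATA3 was most like GBA2, YY1AP1 and EPAS1, XBP1 most like SUMO2, BBIP1 and ROR2, ELF3 most like LINC00324, PRR15 and KLHL21, SPDEF most like LRRC26, GMIP and SRMS, and GRHL2 most like PHF8, DOPEY2 and ERCC6, with r between 0.969 and 0.995.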

How the data were processed

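Poly(A) RNA of BT474 cells was sequenced by the authors from a stranded mRNA kit, aligned to hg38 with Rsubread and counted on RefSeq genes with default settings, and their processing notes also name bcl2fastq and edgeR. The deposited values are a normalised signal, named normalised read counts here: in each library they are whole reads divided by 1 number, since all 199680 values above 0 were whole multiples within 0.001. Reads were recovered this way. Values plus a pseudocount of 1 were taken to log2, 13794 genes that reached 1 in 3 or more libraries were kept, and groups were compared by limma 3.58.1 on all 12 libraries with a variance trend, two-sided, Benjamini-Hochberg adjusted over all genes tested. Calls needed an adjusted p under 0.05 with a log2 change beyond 2 in either direction. The recovered counts summed to 16383363 to 25030482 reads per library. Intervals of read ratios cover counting error only. The fit was tested on simulated data, where limma called 191 of 200 changed genes among 13019, with 0 false calls. Alternatives were edgeR 4.0.16 and DESeq2 1.42.0 on recovered reads, other pseudocounts, filters, scaling, a replicate block and leaving out each library. Named genes are the 10 members, the 2 called genes of each list and successive step with the largest change, and the 3 most correlated genes of each member; other genes named were chosen after their values were seen. LR against DTP was added after seeing the data to order neighbouring levels. Promoter windows were those nearest the canonical start (GENCODE v44), at a distance of 0 bases for 7 genes and 3164 bases for EHF. ESR1 and GATA3 had 6 windows each, PGR 3, and XBP1 and EHF 2 each, and only 1 per gene is reported. The members and lists were chosen with earlier results of these data known. Protein sequences were not used here, and some genes that the rule names are not reported here.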

Additional observations from a re-analysis of the deposited data

How the results depend on the processing

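Of the 10 counts of members called, 3 were the same under every setting. With an absolute log2 change above 1 in place of 2, DTP against Control had 2 members higher and 2 lower, DTEP against DTP 6 higher and 3 lower (ELF3 added), DTEP against Control 4 higher and LR against Control 5 higher. LR against DTEP had 1 member lower with no filter on low values and 0 when fitted on its 6 libraries alone, and 0 to 2 when a library was left out. DTEP against Control had 1 higher under median-of-ratios scaling and under DESeq2 (XBP1 lost), and 1 to 2 with a library left out. LR against Control had 1 to 2 higher with a library left out. Differences that did not pass the test changed sign: GRHL2 in DTEP against DTP under median-of-ratios scaling (−0.031) and DESeq2 (−0.023), and with a library left out GRHL2 in DTEP against DTP (−0.12 to 0.20) and in LR against Control (−0.027 to 0.16), and in LR against DTEP FOXA1 (−0.0080 to 0.36), GATA3 (−0.095 to 0.30) and SPDEF (−0.20 to 0.13). The cause was not tested. That scaling shifted the all-gene median of DTEP against DTP by −0.10. Over all genes, LR against DTEP had 31 higher and 63 lower, but 60 and 264 with a pseudocount of 0.1, 71 and 510 with edgeR, 75 and 624 with DESeq2, and 0 and 0 on 6 libraries, with 114 lower at a pseudocount of 0.5, 32 lower with no filter and 3 to 213 lower with a library left out. Further counts moved by over 1.5 times were those of DTP against Control, 140 higher against 367 with a pseudocount of 0.1, 487 with edgeR and 481 with DESeq2, and 538 lower against 814 with that pseudocount, of DTEP against DTP, 969 lower against 1675, 1738 and 1813, of DTEP against Control, 611 higher and 855 lower against 1009 higher with edgeR, 933 higher with DESeq2 and 1399, 1359 and 1420 lower, and of LR against Control, 694 higher and 1076 lower against 1128 higher with edgeR and 1718, 1645 and 1723 lower.

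No pairing by replicate number was detected: the same-number correlations ran from −0.44 to 0.36, and 2 of 18 were above 0.1. Libraries of different number ran from −0.43 to 0.46. The check cannot exclude pairing, since deviations from a mean of 3 libraries are tied to each other. Both values above 0.1 were between DTP and DTEP, at 0.36 and 0.34. With the number as a replicate block the counts of members called stayed at 2 lower in LR against DTEP, and FOXA1 (−0.51, limma adjusted p = 0.0589) and GRHL2 (−0.45, adjusted p = 0.0503) no longer passed in DTP.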
